A study of Mus musculus with 20 samples.

Results

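Genes that FOXO transcription factors or starvation are known to induce were followed through the newborn and fetal mouse pancreas. They were Pdk4, Sesn1, Sesn3, Txnip, Bnip3, Ccng2, Trp53inp1, Klf15, Cited2 and Bcl6, that is 10 of the 30063 genes with a probe set of their own on the array. They were taken by symbol from a list, and a gene with more than 1 probe set is represented by the brightest of them. The list was chosen with earlier results of these data known, so its counts beside shares of all tested genes are descriptions. The arrays held pancreas RNA of C57BL/6J mice on the day of birth (P0) and at embryonic day 18.5 (E18.5). At P0 there were 6 arrays from mice lacking inceptor (knockout, Iir -/-) and 5 from wild type (Iir +/+), and pups of both genotypes had been starved for 5 h. At E18.5 there were 5 knockout and 4 wild-type arrays, and here the mother had been starved for 2 h. Inceptor, encoded by Elapor1 (Iir in the labels), is a transmembrane protein that dampens insulin receptor signalling; sex was not determined and the labels name no promoter or cell type that limits the deletion.

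When insulin signalling is low, the kinase AKT no longer holds FOXO factors in the cytoplasm, and FOXO proteins enter the nucleus and raise genes that spare glucose, slow growth and feed autophagy. Several of these genes also answer to other signals of the fasted or newborn state, among them the glucocorticoid receptor, the glucose-sensing factors ChREBP and MondoA, the hypoxia-inducible factor HIF and p53. A raised level of one of them in whole tissue is therefore no measure of FOXO activity by itself.

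The proximal promoters were available for 9 of the 10 genes in RefSeq's table for GRCm38.p6, as 11 windows of 250 bases ending at the transcription start. The windows of Txnip, Pdk4 and the first Sesn1 start are shown because these genes changed by several-fold between the ages and because the windows differ in the elements they hold. The Txnip window is chr3:96557707-96557956 on the plus strand, that of Pdk4 chr6:5496279-5496528 on the minus strand and that of Sesn1 chr10:41810324-41810573 on the plus strand. Each is written 5′ to 3′, and capitals mark matches to a full FOXO element, a carbohydrate response element, a glucocorticoid receptor palindrome or an E-box.
Txnip: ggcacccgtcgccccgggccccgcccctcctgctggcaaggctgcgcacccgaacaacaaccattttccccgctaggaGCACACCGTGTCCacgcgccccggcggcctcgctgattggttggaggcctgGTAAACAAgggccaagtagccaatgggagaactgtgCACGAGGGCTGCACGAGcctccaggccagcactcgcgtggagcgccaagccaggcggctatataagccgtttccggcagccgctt
Pdk4: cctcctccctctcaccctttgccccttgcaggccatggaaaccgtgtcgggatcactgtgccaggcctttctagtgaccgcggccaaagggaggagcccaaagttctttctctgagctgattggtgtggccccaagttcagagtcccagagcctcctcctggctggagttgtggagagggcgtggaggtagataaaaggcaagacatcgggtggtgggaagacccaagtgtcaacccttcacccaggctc
Sesn1: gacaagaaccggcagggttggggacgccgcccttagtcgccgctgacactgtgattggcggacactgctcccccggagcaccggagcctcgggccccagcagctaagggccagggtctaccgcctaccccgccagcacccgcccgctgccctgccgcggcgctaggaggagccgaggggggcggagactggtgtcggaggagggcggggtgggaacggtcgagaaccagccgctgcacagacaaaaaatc
Both strands were searched. The Txnip window held GTAAACAA, the full FOXO element, from 121 to 114 bases upstream of the start, and 1.07% of 32851 promoter windows held it. That match contains the shorter forkhead core GTAAACA, found in 3.17% of windows. The same window held a palindrome of the glucocorticoid receptor type, GNACANNNTGTNC, from 172 to 160 bases upstream (0.387% of windows). It also held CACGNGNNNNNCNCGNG, the spaced pair of E-box-like elements that ChREBP and MondoA bind, from 85 to 69 bases upstream (0.28% of windows). The E-box CACGTG, present in 6.02% of windows, occurred 2 times in the Klf15 window and 1 time each in those of Bnip3, Cited2 and Bcl6. None of these letters occurred in the Pdk4, Sesn1, Sesn3 or Ccng2 windows. These matches describe the sequence and were not tested for binding.

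Elapor1 was lower in all 11 knockout arrays than in all 9 wild-type arrays, with log2 signals of 5.58 to 6.5 in knockouts and 11.07 to 12.06 in wild type. Array medians lay between 4.81 and 4.94, which places the background near 5 on the log2 scale. Of the listed pancreas markers, 10 acinar and 10 islet genes were tested, and all were above the array median on every array. The acinar mean was 16.19 to 16.76 at P0 and 16.91 to 17.34 at E18.5, without overlap. The islet mean was 10.99 to 11.64 over both ages. Markers of neighbouring organs varied widely. The mean of 13 liver markers was 9.29 to 13.25 in P0 knockouts, 7.14 to 11.49 in P0 wild type, 9.19 to 12.65 in E18.5 knockouts and 9.60 to 11.91 in E18.5 wild type. An intestinal or skeletal muscle marker mean over 7 marked 5 arrays, which were P0 knockout 4 and, at the earlier age, knockouts 1, 2 and 4 and wild type 4. In whole tissue, fewer cells of a type and less RNA per cell cannot be told apart. Whether the arrays came from separate animals is not in the labels, so a p-value reflects only how these samples vary, and the number of arrays limits its precision.

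**Figure D1:**
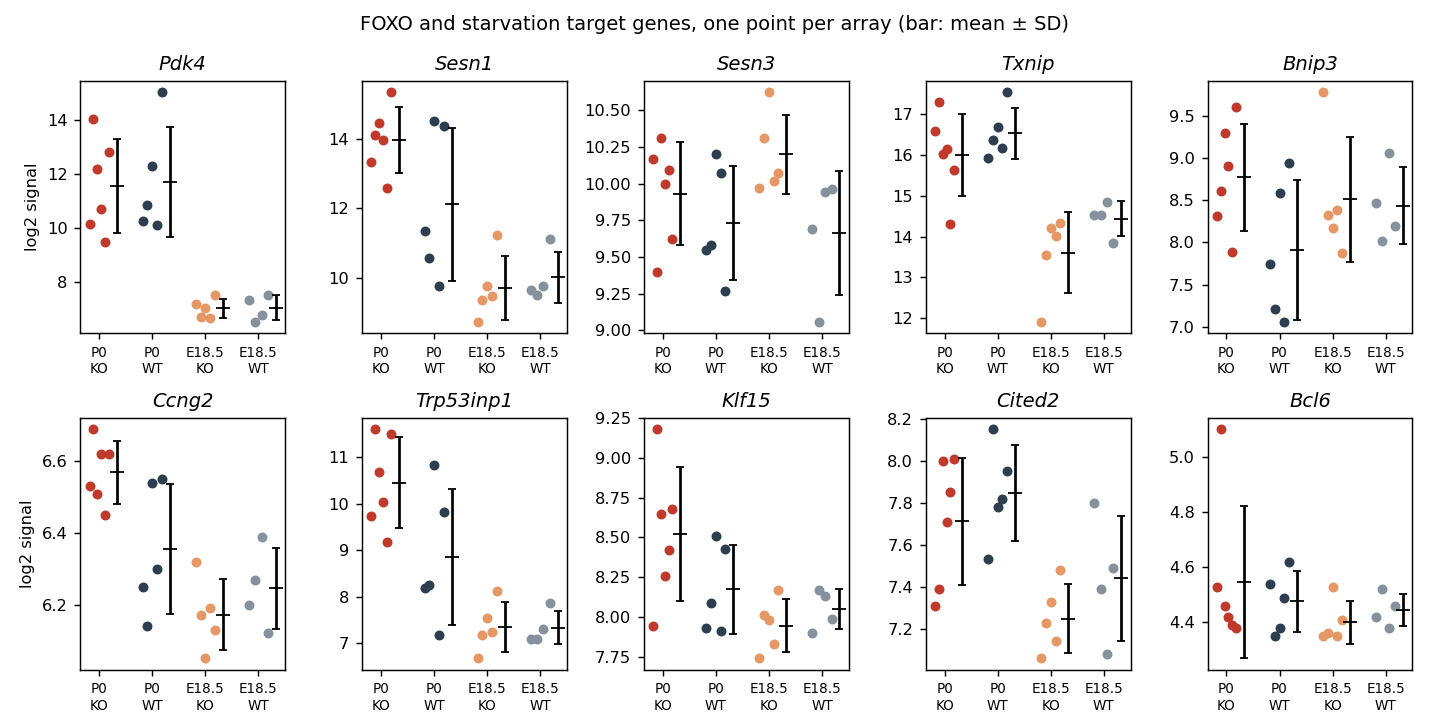
Log2 signal (vertical axes, on a scale of its own for each gene) of the 10 genes on every array, with P0 knockout, P0 wild type, E18.5 knockout and E18.5 wild type from left to right. Points are arrays and bars show mean ± SD; all P0 arrays lie above all E18.5 arrays for Pdk4, all but 1 do for Txnip, and in P0 wild type Sesn1, Bnip3 and Ccng2 fall into 3 low and 2 high arrays.

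Pdk4 encodes the kinase that shuts pyruvate out of the citric acid cycle in fasting, and its mRNA varied widely at birth. In P0 knockouts its log2 signal had a lowest value of 9.49, a median of 11.45 and a highest of 14.03. P0 wild-type arrays read 10.26, 10.86, 12.28, 10.10 and 15. E18.5 knockout arrays read 7.22, 6.72, 7.07, 6.68 and 7.53, whereas E18.5 wild-type arrays read 7.37, 6.56, 6.80 and 7.53. Every P0 array lay above every E18.5 array, while the genotypes overlapped at both ages. The spread was wide at P0 (SD 1.73 in P0 knockouts, n = 6, and 2.04 in P0 wild type, n = 5) and narrow before it (0.35 in E18.5 knockouts, n = 5, and 0.46 in E18.5 wild type, n = 4). Within P0 alone its values covered more than 5 log2 units.

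Sesn1 encodes sestrin 1, a stress protein that restrains mTORC1. It had a lowest value of 12.57, a median of 14.04 and a highest of 15.34 in P0 knockouts. P0 wild-type arrays read 11.34, 10.55, 14.53, 9.76 and 14.37. The values were 8.73, 9.36, 9.77, 9.46 and 11.22 in E18.5 knockouts and 9.64, 9.51, 9.76 and 11.10 in E18.5 wild type. All 6 P0 knockouts were high, whereas in P0 wild type arrays 3 and 5 were as high as the knockouts and the other three lay below every P0 knockout. Trp53inp1, whose product takes part in autophagy and in p53-dependent cell death, had the same shape. Its lowest, median and highest values in P0 knockouts were 9.17, 10.36 and 11.60, and P0 wild-type arrays read 8.20, 8.26, 10.83, 7.17 and 9.83. It read 6.68, 7.18, 7.55, 7.24 and 8.13 in E18.5 knockouts and 7.10, 7.09, 7.30 and 7.86 in E18.5 wild type. Again P0 wild-type arrays 3 and 5 overlapped the knockouts and arrays 1, 2 and 4 lay below them.

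Txnip encodes the thioredoxin-binding arrestin that limits glucose uptake, and it was the brightest of the 10 probe sets, although levels of different probe sets are not comparable. Its lowest, median and highest values were 14.32, 16.09 and 17.29 in P0 knockouts, and P0 wild-type arrays read 15.93, 16.37, 16.68, 16.16 and 17.53. The E18.5 knockouts read 11.92, 13.56, 14.21, 14.01 and 14.34 and the E18.5 wild type 14.54, 14.52, 14.85 and 13.84. P0 knockout 5 was the single P0 array inside the E18.5 range. No value of the 10 genes reached the ceiling of the scale at 19.932.

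The remaining genes moved less. Ccng2, an atypical cyclin linked to cell cycle exit, was 6.45 to 6.69 in P0 knockouts and 6.25, 6.14, 6.54, 6.30 and 6.55 in P0 wild type, against 6.05 to 6.32 in E18.5 knockouts and 6.12 to 6.39 in E18.5 wild type. Klf15, a transcription factor of amino acid breakdown and gluconeogenesis in fasting, was 7.94 to 9.18 in P0 knockouts, 7.91 to 8.51 in P0 wild type, 7.74 to 8.17 in E18.5 knockouts and 7.90 to 8.17 in E18.5 wild type. Cited2, a CBP and p300 binding factor that competes with HIF, was 7.31 to 8.01 in P0 knockouts, 7.53 to 8.15 in P0 wild type, 7.06 to 7.48 in E18.5 knockouts and 7.08 to 7.80 in E18.5 wild type. For all 3 the groups overlapped except Ccng2 in knockouts, where all 6 P0 arrays exceeded all 5 E18.5 arrays.

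Bnip3, a mitochondrial autophagy receptor and HIF target, was 7.89 to 9.61 in P0 knockouts, 7.06 to 8.94 in P0 wild type, 7.88 to 9.78 in E18.5 knockouts and 8.02 to 9.06 in E18.5 wild type. Sesn3, a sestrin that FOXO factors induce, was 9.40 to 10.31 in P0 knockouts, 9.27 to 10.20 in P0 wild type, 9.97 to 10.62 in E18.5 knockouts and 9.06 to 9.96 in E18.5 wild type. These genes did not separate the ages. Bcl6, a transcriptional repressor, stayed near background at 4.35 to 5.10 on all arrays and was the single one of the 10 that did not pass the signal filter, which asked that 4 or more arrays read above their own median. The tests below therefore cover 9 of the 10 genes among 17993 tested.

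The comparison of P0 with E18.5 asked how these genes stand after birth and a longer fast; age, birth, the way of starving and the samples' running number in the labels (1 to 12 at P0 and 13 to 22 at E18.5) cannot be told apart in it. In knockouts 7 of the 9 tested genes were called higher at P0 and 0 lower (limma, adjusted p under 0.05 over all tested genes), where 11.3% of all tested genes were called higher and 11.7% lower. Pdk4 was 22.9-fold higher (log2 difference 4.52 ± 0.82 SE, adjusted p = 0.000869) and Sesn1 19.1-fold higher (4.26 ± 0.77, adjusted p = 0.00087). Trp53inp1 was 8.55-fold higher (3.10 ± 0.55, adjusted p = 0.00077) and Txnip 5.26-fold higher (2.40 ± 0.48, adjusted p = 0.00164). Smaller rises were called for Ccng2 (0.40 ± 0.08, adjusted p = 0.00144), Klf15 (0.58 ± 0.17, adjusted p = 0.0206) and Cited2 (0.46 ± 0.15, adjusted p = 0.0314). Bnip3 differed by 0.26 ± 0.39 (adjusted p = 0.687) and Sesn3 by -0.27 ± 0.21 (adjusted p = 0.393). The P0 and E18.5 knockouts did not overlap for Pdk4, Sesn1, Ccng2 and Trp53inp1, 4 of 9 genes, against 5.9% of all tested genes that were higher at P0 without overlap. Exact two-sided permutation of the 6 P0 and 5 E18.5 knockouts gave p = 0.00433 for Pdk4, 0.00649 for Txnip and 0.00216, the smallest possible, for Sesn1, Trp53inp1 and Ccng2. The median difference was 0.58 over the 9 genes and -0.0037 over all tested genes. Tissue markers differed by age as well. The acinar marker mean was lower on every P0 array than on every E18.5 array, and 9 of 9 mesenchyme markers stood higher at P0 in each genotype. The part of tissue make-up in the age differences was not tested beyond the marker settings given below.

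Without the 5 arrays high in intestinal or muscle markers, which leaves 2 E18.5 knockouts, the count in knockouts was 1 (Ccng2), while the differences stayed large for Pdk4 (4.44, adjusted p = 0.0846), Sesn1 (3.47, adjusted p = 0.125), Trp53inp1 (2.69, adjusted p = 0.105) and Txnip (1.70, adjusted p = 0.144). The call for Cited2 was lost without P0 knockout 3, 5 or 6 or E18.5 knockout 1, 2 or 4 (adjusted p of 0.059 to 0.0786), and that for Klf15 without E18.5 knockout 1 (adjusted p = 0.0549). Both calls were also lost with the liver, intestinal and muscle marker means as covariates, where the differences were 0.45 for Klf15 and 0.44 for Cited2 (adjusted p = 0.171 for each).

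In wild type 2 of the 9 genes were called higher at P0 and 0 lower, with 4.76% of all tested genes called higher and 4.1% lower. Pdk4 was 24.8-fold higher (4.63 ± 0.91, adjusted p = 0.00544) and Txnip 4.28-fold higher (2.10 ± 0.53, adjusted p = 0.0202). Both were higher in all 5 P0 arrays than in all 4 E18.5 arrays, which held for 6.24% of all tested genes. Sesn1 differed by 2.11 ± 0.86 (adjusted p = 0.134), Trp53inp1 by 1.53 ± 0.61 (adjusted p = 0.128) and Cited2 by 0.40 ± 0.16 (adjusted p = 0.137). Klf15 (0.13 ± 0.19), Ccng2 (0.11 ± 0.09), Sesn3 (0.07 ± 0.23) and Bnip3 (-0.53 ± 0.44) were not called. The median difference was 0.40 over the 9 genes and 0.0056 over all tested genes. The count depended on single arrays. Without P0 wild type 4 it was 4, since Sesn1 (2.70, adjusted p = 0.0495) and Trp53inp1 (1.95, adjusted p = 0.0469) were then called. Without P0 wild type 5, E18.5 wild type 1 or E18.5 wild type 2 it was 1, with Txnip at an adjusted p of 0.0503 to 0.0551.

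**Figure D2:**
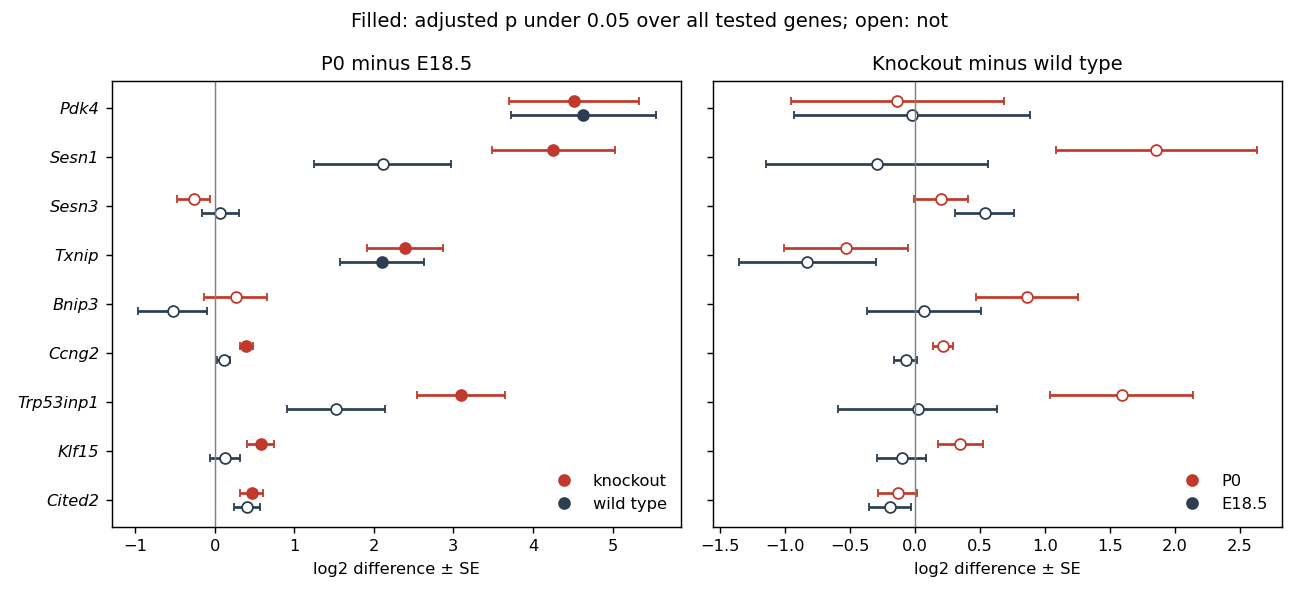
Log2 differences ± SE of the 9 tested genes, for P0 minus E18.5 on the left and knockout minus wild type on the right. Filled points passed an adjusted p of 0.05; Pdk4 and Txnip are filled in both genotypes on the left, and no point is filled on the right.

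Knockouts were compared with wild type to ask whether these targets of insulin-restrained FOXO factors shift when the brake on the insulin receptor is lost. At P0 none of the 9 genes was called, and 0.0111% of all tested genes were (2 genes). With an unadjusted p under 0.05 there were 4 of the 9, against 8.76% of all tested genes. These limma p-values rest on a residual spread shared by the arrays of both ages, not on that of the P0 arrays alone. Trp53inp1 stood at 1.59 ± 0.55 (unadjusted p = 0.0099, adjusted p = 0.476), Sesn1 at 1.86 ± 0.77 (unadjusted p = 0.0274, adjusted p = 0.549), Bnip3 at 0.86 ± 0.39 (unadjusted p = 0.0421, adjusted p = 0.569) and Ccng2 at 0.21 ± 0.08 (unadjusted p = 0.0133, adjusted p = 0.486). The other genes stood at 0.35 ± 0.17 (Klf15), 0.20 ± 0.21 (Sesn3), -0.13 ± 0.15 (Cited2), -0.14 ± 0.82 (Pdk4) and -0.53 ± 0.48 (Txnip). Exact two-sided permutation of the 6 knockout and 5 wild-type arrays gave p = 0.039 for Ccng2, 0.0606 for Trp53inp1, 0.0866 for Bnip3 and 0.104 for Sesn1, where 0.00216 is the smallest possible. That permutation used the P0 arrays alone, and of these 4 genes only Ccng2 stayed under 0.05 in it. For each of the 4 genes the SD was largest in P0 wild type, where arrays 3 and 5 lay within the knockout range. The median difference was 0.21 over the 9 genes and 0.0054 over all tested genes, and 6 of 9 differences were above 0, against 52.1% of all tested genes. Liver markers also stood higher in P0 knockouts, with 13 of 13 differences above 0 at a median of 1.70 and 0 called. With the liver, intestinal and muscle marker means as covariates the difference was 1.65 for Sesn1 (adjusted p = 0.692) and 1.34 for Trp53inp1 (adjusted p = 0.658).

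At E18.5 none of the 9 genes was called either, again beside 0.0111% of all tested genes. Sesn3 alone had an unadjusted p under 0.05, as did 5.45% of all tested genes. Its knockout arrays read 9.97, 10.31, 10.62, 10.02 and 10.07 and its wild-type arrays 9.69, 9.06, 9.94 and 9.96, so that all 5 knockouts exceeded all 4 wild types, as 1.74% of all tested genes did. The difference was 0.53 ± 0.23 (unadjusted p = 0.0312, adjusted p = 0.911), and the exact two-sided permutation p of 0.00794 is the smallest that 5 against 4 arrays can give. A second Sesn3 probe set averaged 7.74 in E18.5 knockouts and 7.71 in E18.5 wild type and did not show the difference. The within-group deviations of the 2 probe sets had a Pearson r of 0.368. Txnip stood at -0.83 ± 0.53 (adjusted p = 0.958), and E18.5 differences of the other genes lay between -0.29 and 0.07.

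Averaged over both ages, 0 of the 9 genes were called between the genotypes (0.0167% of all tested genes), with Sesn3 (0.37, adjusted p = 0.706) the single one at an unadjusted p under 0.05. The difference of the knockout effect between P0 and E18.5, tested as an interaction, was called for 0 of the 9 genes and 0% of all tested genes. Its value was 2.15 ± 1.15 for Sesn1 (adjusted p = 0.748), 1.57 ± 0.82 for Trp53inp1 (adjusted p = 0.740) and 0.29 ± 0.12 for Ccng2 (unadjusted p = 0.0237, adjusted p = 0.668). The calls for Sesn1 and Trp53inp1 by age in knockouts but not in wild type are thus not shown to differ between the genotypes.

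From array to array within a group, the genes fell into a tight set and a loose remainder over all 20 arrays. With each array's deviation from its group mean, 15 of the 45 pairs among the 10 genes had a Pearson r over 0.5 on all 20 arrays, against 3.39% of all pairs of tested genes. The 15 include pairs of Bcl6, which was near background and not tested, with Pdk4, Klf15 and Txnip (r = 0.511, 0.511 and 0.548). Their rho was 0.168, 0.126 and 0.411. Without the 2 arrays farthest out in the other gene, r was -0.069, 0.105 and 0.596. The 45 values ran from -0.414 to 0.92 with a median of 0.28. Pdk4, Sesn1, Trp53inp1 and Klf15 formed the tight set, picked from these same 45 values, with r of 0.584 to 0.92 in all 6 of their pairs. The lowest, Sesn1 with Klf15, was 0.479 without the 2 arrays farthest out in Sesn1, and limma did not call this pair. The lowest r of the 6 pairs was 0.441 on the P0 knockouts alone and -0.156 on the E18.5 arrays. Permutation p-values of pairs given below were not adjusted over the 45 pairs. For pairs of the tight set they also follow its choice by r, so they are descriptions. Without P0 wild type 5, 8 pairs were over 0.5. On the 11 P0 arrays 21 pairs were over 0.5 (median 0.427), on the 6 P0 knockouts alone also 21 (median 0.429), and on the 9 E18.5 arrays 8 (median 0.052). P0 wild type holds 3 low and 2 high arrays, too few of either to be taken alone, so values of the P0 knockouts are given beside the pooled ones.

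**Figure D3:**
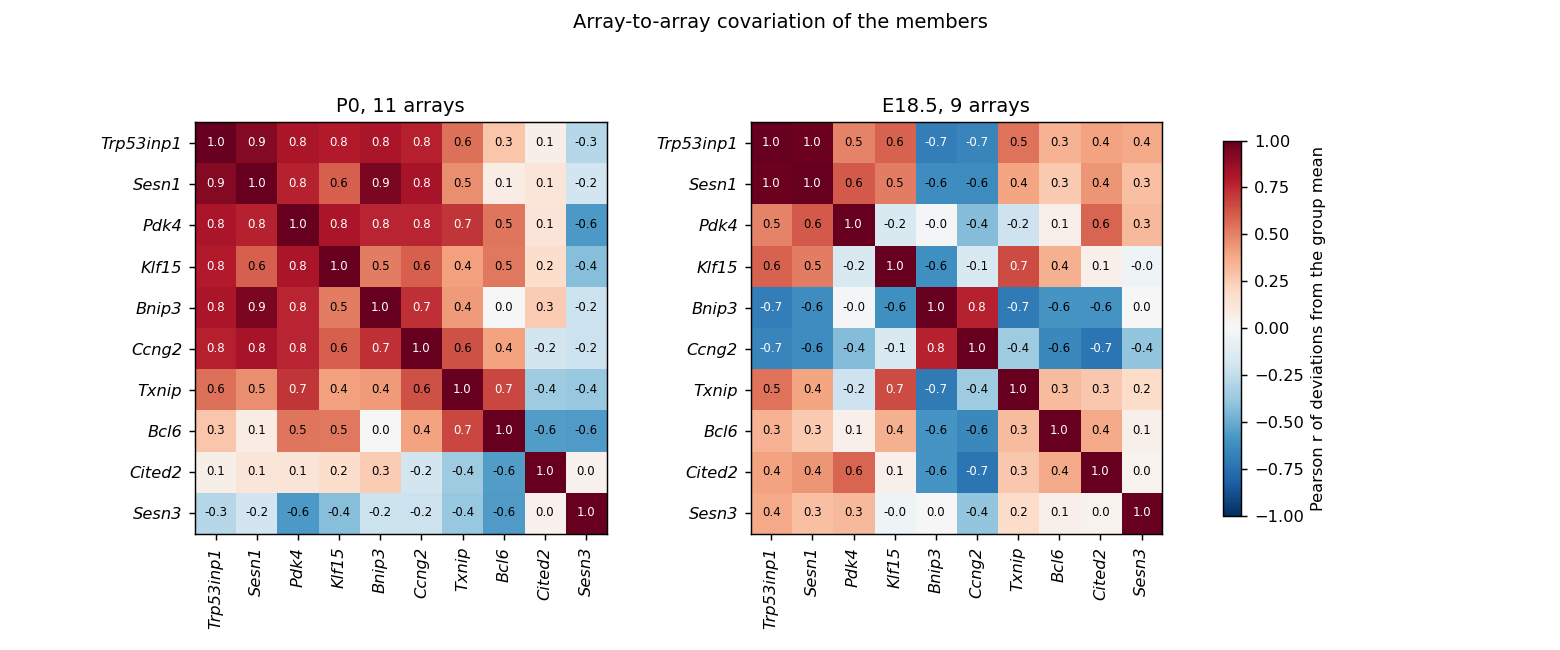
Pearson r between within-group deviations for each pair of the 10 genes, on the 11 P0 arrays (left) and the 9 E18.5 arrays (right), from -1 in blue to 1 in red. At P0 Trp53inp1, Sesn1, Pdk4, Klf15, Bnip3 and Ccng2 form a red block; at E18.5 Bnip3 and Ccng2 are negative with Sesn1 and Trp53inp1.

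Sesn1 and Trp53inp1 were the most closely related pair over all 20 arrays, picked as such, so the permutation p below is a description. Over 20 arrays r was 0.92 and rho 0.931 (permutation p = 2e-05 for r, with arrays shuffled within groups; adjusted p = 0.000196 over all genes in the limma fit), and r was 0.896 without the 2 arrays farthest out in Sesn1. It was 0.916 at P0, 0.855 in the P0 knockouts alone and 0.979 at E18.5. At E18.5 the arrays highest in Sesn1, knockout 5 and wild type 4, were also highest in Trp53inp1 within their groups. Per log2 unit of Sesn1, Trp53inp1 was higher by 0.66 ± 0.07 log2 units.

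Pdk4 followed Trp53inp1 with r = 0.793 and rho = 0.89 (permutation p = 0.00289, adjusted p = 0.00745 in the limma fit on Pdk4; r = 0.822 without the 2 farthest arrays). In the P0 knockouts alone the 2 genes had the same order on all 6 arrays (r = 0.978, rho = 1), and at E18.5 r was 0.499. The liver marker mean followed nearly that order too, at 10.47, 12.67, 10.89, 10.84, 9.29 and 13.25 on P0 knockouts 1 to 6. Pdk4 and Sesn1 had r = 0.735 and rho = 0.823 (permutation p = 0.00161, adjusted p = 0.0228; 0.777 without the 2 farthest), with 0.751 in the P0 knockouts and 0.61 at E18.5. Pdk4 and Klf15 had r = 0.742 and rho = 0.789 (permutation p = 0.00307, adjusted p = 0.0243; 0.649 without the 2 farthest), with 0.858 in the P0 knockouts and -0.156 at E18.5. Trp53inp1 and Klf15 had r = 0.77 and rho = 0.871 (permutation p = 0.0007, adjusted p = 0.0215 in the limma fit on Trp53inp1). Their r was 0.763 without the 2 farthest arrays, 0.776 in the P0 knockouts and 0.59 at E18.5. The arrays behind these values were P0 wild types 3 and 5 with P0 knockouts 2, 3 and 6 on the high side, and P0 wild types 1, 2 and 4 with P0 knockouts 1 and 5 on the low side.

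The correlations of Bnip3 with Sesn1 and Trp53inp1 had opposite signs at the 2 ages, with a permutation p over 0.05 for both E18.5 values. With Sesn1, Bnip3 had r = 0.943 at P0 and 0.966 in the P0 knockouts alone, against -0.624 at E18.5 (permutation p = 0.112). Over all 20 arrays r was 0.523 and rho 0.502 (permutation p = 0.0614, adjusted p = 0.26 in the limma fit on Sesn1), and r was 0.334 without the 2 farthest. With Trp53inp1, Bnip3 had r = 0.82 at P0 and 0.714 in the P0 knockouts alone, against -0.688 at E18.5 (permutation p = 0.0865). The E18.5 values rest in part on knockout 1, which had the highest Bnip3 of its group (9.78), the lowest Sesn1 (8.73) and a high skeletal muscle mean of 8.23. Whether the relation differs between the ages was not tested. Bnip3 and Ccng2 had r = 0.74 and rho = 0.752 over 20 arrays (permutation p = 0.00211, adjusted p = 0.184 in the limma fit on Bnip3). Their r was 0.637 without the 2 farthest arrays. It was 0.729 at P0, 0.429 in the P0 knockouts alone (permutation p = 0.39) and 0.766 at E18.5 (0.068 there without the 2 farthest). Sesn3 had r of -0.40 with Pdk4 and -0.054 with Sesn1, and Cited2 stayed between -0.372 and 0.198 with the other genes. Txnip had r = 0.517 and rho = 0.409 with Pdk4 (permutation p = 0.0255, adjusted p = 0.216), which became 0.247 without the 2 farthest arrays and so rests on them. In the P0 knockouts alone r between Txnip and Pdk4 was 0.612 (permutation p = 0.189).

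**Figure D4:**
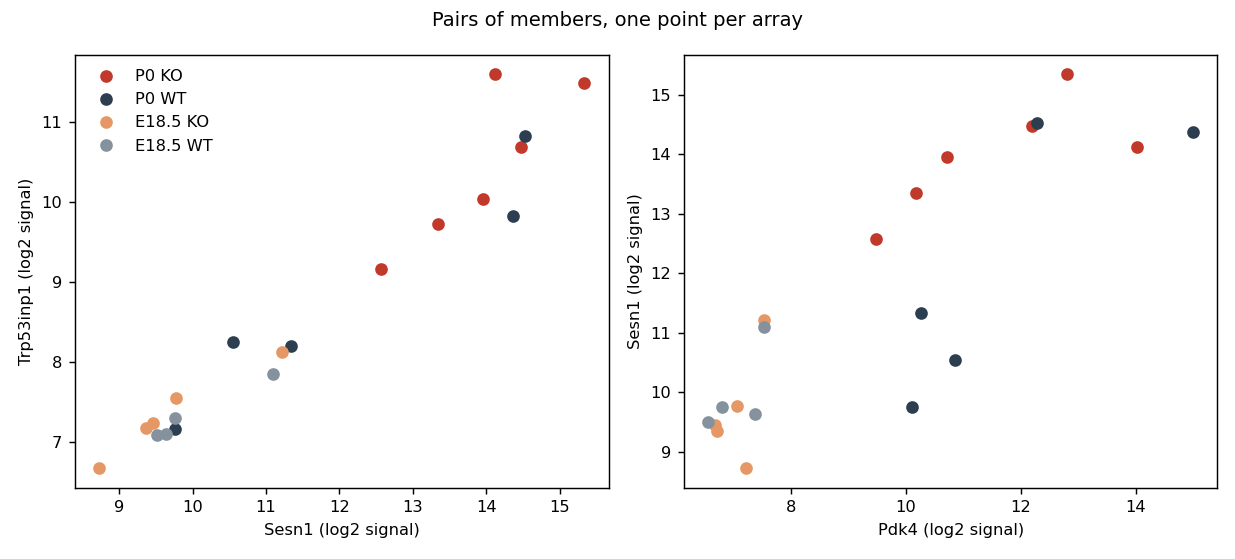
Log2 signals of Trp53inp1 against Sesn1 (left) and of Sesn1 against Pdk4 (right), 1 point per array coloured by group. On the left the arrays lie along 1 line across groups; on the right P0 wild types 1, 2 and 4 lie below the P0 knockouts at Pdk4 of 10.1 to 10.86.

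Each gene of the set was also used as the covariate of a fit across all tested genes beside the 4 group means. With Pdk4, 3 of 8 other tested members were called (Sesn1, Trp53inp1 and Klf15, all positive), with 2.66% of all genes called. With Trp53inp1, 3 of 8 were called (Sesn1, Pdk4 and Klf15), with 1.4% of all genes. With Sesn1, 2 of 8 were called (Trp53inp1 and Pdk4), with 1.88% of all genes. With Klf15, 1 of 8 was called (Trp53inp1, adjusted p = 0.0457), with 0.35% of all genes, and this call was lost without any one of 16 arrays. With Bcl6 0 of 9 were called (0.478% of all genes), with Bnip3 0 of 8 (0.0389%), and with Sesn3, Txnip, Ccng2 or Cited2 0 of 8 and 0% of all genes. The call between Sesn1 and Pdk4 was lost without P0 wild type 4 or 5, and in the fit on Sesn1 also without P0 knockout 5 (adjusted p of 0.0546 to 0.172 over both fits). Klf15 was no longer called with Pdk4 without P0 knockout 2 (adjusted p = 0.112), and Bnip3 was called with Sesn1 without E18.5 knockout 1 (adjusted p = 0.0286). Without the 5 arrays high in intestinal or muscle markers the counts were 1 with Pdk4, 1 with Trp53inp1, 2 with Sesn1 and 0 with Klf15.

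Liver markers moved with these genes in some groups and not in others. In the P0 knockouts the liver marker mean had r = 0.887 with Pdk4, 0.864 with Sesn1, 0.957 with Trp53inp1 and 0.633 with Klf15 over 6 arrays, given as a description. On all 11 P0 arrays these values were 0.101, 0.058, 0.32 and 0.318. P0 wild type 5 had the lowest liver mean of all arrays (7.14) with the highest Pdk4 of all, and P0 wild type 4 had a liver mean of 11.37 with the lowest Pdk4, Sesn1 and Trp53inp1 of its group. On the 9 E18.5 arrays they were 0.254, 0.729, 0.682 and 0.575, and knockout 5, highest in Sesn1 and Trp53inp1, also had the highest liver mean of its group (12.65), while wild types 3 and 4 both read 11.91. The 13 liver markers had a median slope of 0.15 on Pdk4, 0.23 on Sesn1 and 0.61 on Trp53inp1, and none was called. With the liver, intestinal and muscle marker means as covariates, Sesn1 and Trp53inp1 remained called in both fits (Trp53inp1 on Sesn1 0.62, adjusted p = 0.00119), as did Pdk4 and Trp53inp1 (Trp53inp1 on Pdk4 0.50, adjusted p = 0.0179). Under the same covariates Klf15 was called on Pdk4 (0.14, adjusted p = 0.0431) and not on Trp53inp1 (0.21, adjusted p = 0.0903). The slope between Pdk4 and Sesn1 kept its size without a call (Sesn1 on Pdk4 0.68, adjusted p = 0.0594).

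Genes outside the 10 whose array-to-array pattern was most like that of the group were ranked by Pearson r of within-group deviations with the mean standardised deviation of the 9 tested members over 20 arrays, as a description. The highest were Tsc22d3 (0.948), which encodes the glucocorticoid-induced leucine zipper, Fam107a (0.937), Carmil1 (0.929), Zbtb16 (0.919), Klk1b27 (0.916), Glns-ps1 and Lrrc7 (both 0.914) and Pnpla2 (0.906), the triglyceride lipase of fasting. Glns-ps1 and Lrrc7 had the same r of 0.91377, and whether their signals are separate was not tested. The lowest were Guk1 (-0.899), Psmc5 (-0.883), Ndufa12-ps (-0.883), Sostdc1 (-0.877), Fbl (-0.861), Sec24d (-0.860), Snrpf (-0.855) and Gatm (-0.835). Over all genes the 5th percentile was -0.528, the median -0.005 and the 95th percentile 0.54. The members, which enter the mean themselves, stood at 0.923 (Trp53inp1), 0.895 (Sesn1), 0.877 (Pdk4), 0.754 (Klf15), 0.631 (Bnip3), 0.624 (Ccng2), 0.541 (Txnip), 0.212 (Cited2) and -0.078 (Sesn3).

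Lists of other genes around the same pathways were set beside the 10, and these too were chosen with earlier results of these data known. The lists share some genes, such as Sgk1 and Klf9, and hold no member. Of all tested genes, 1.88% were called with Sesn1, 1.4% with Trp53inp1 and 2.66% with Pdk4, in either direction. Among glucocorticoid receptor targets, 12 of 16 tested genes moved with Sesn1, 8 of 16 with Trp53inp1 and 6 of 16 with Pdk4, all with positive slopes. Per log2 unit of Sesn1, Errfi1, a feedback inhibitor of EGF receptor signalling, was higher by 0.71 (adjusted p = 0.000201), Zbtb16, a zinc finger repressor, by 0.73 (adjusted p = 0.000399), Fkbp5, the co-chaperone of the glucocorticoid receptor, by 0.51 (adjusted p = 0.000264) and Tsc22d3 by 0.26 (adjusted p = 0.000887). Without P0 wild type 5 the count with Sesn1 was 6 and that with Pdk4 4, and without the arrays high in intestinal or muscle markers the counts were 7 with Sesn1, 5 with Trp53inp1 and 4 with Pdk4. Of 22 tested other FOXO-induced genes, 6 moved with Sesn1 (1 without P0 wild type 5), 4 with Pdk4 and 3 with Trp53inp1 (2 without P0 wild type 5, 6 without P0 knockout 2). The autophagy gene Gabarapl1 was called on Sesn1 (0.36 per log2 unit, adjusted p = 0.014) and on Pdk4 (0.33, adjusted p = 0.0173). Of 21 tested FOXO factors and upstream genes, 4 moved with Pdk4 (2 without P0 wild type 5), 3 with Sesn1 (1 without P0 wild type 5) and 2 with Trp53inp1. Without the arrays high in intestinal or muscle markers, 2 of the other FOXO-induced genes were called on Sesn1 and 1 of the FOXO factors and upstream genes on Pdk4. Foxo3 was higher by 0.19 per log2 unit of Pdk4 (adjusted p = 0.00579) and by 0.31 per unit of Trp53inp1 (adjusted p = 0.00181). At most 1 gene moved positively with any of these 3 genes among 11 carbohydrate response targets, 19 hypoxia targets, 11 p53 targets and 14 fasting and PPAR targets, or 2 without single arrays. The carbohydrate response list also holds the genes of ChREBP (Mlxipl), MondoA (Mlxip) and their partner Mlx.

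**Figure D5:**
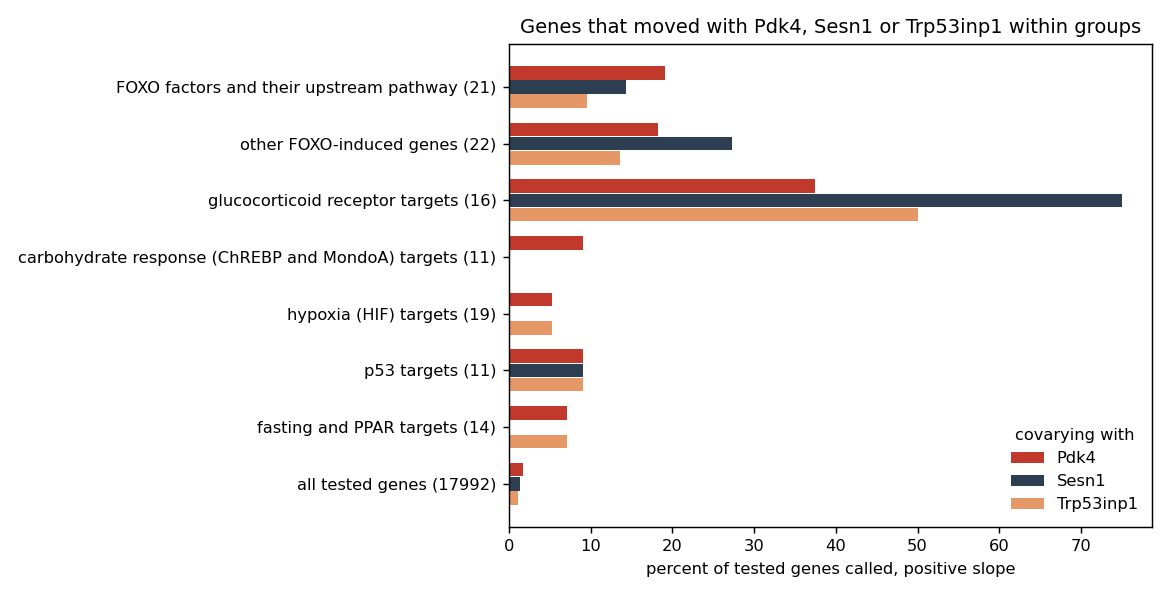
Percent of the tested genes of each list (number in brackets) called with a positive slope on Pdk4, Sesn1 or Trp53inp1 within groups, with all tested genes at the bottom. The glucocorticoid receptor targets have the longest bars for all 3 genes, with 12 of 16 on Sesn1.

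By age, the same lists went different ways in the knockouts; of all tested genes, 11.3% were called higher and 11.7% lower in knockouts, and 4.76% higher and 4.1% lower in wild type. Glucocorticoid receptor targets were called higher at P0 for 11 of 16 genes and lower for 0, with Errfi1 at 2.82 ± 0.60 (adjusted p = 0.00258), Zbtb16 at 2.45 ± 0.63 (adjusted p = 0.00935), Klf9 at 1.83 ± 0.28 (adjusted p = 0.000274) and Fkbp5 at 1.72 ± 0.44 (adjusted p = 0.00836). In wild type 1 of 16 was called, Nfkbia (0.67 ± 0.20, adjusted p = 0.0491). There 4 were called without P0 wild type 4, and 0 without any one of 13 other arrays. Of the 16 differences 12 were above 0 in wild type, at a median of 0.50, and 14 in knockouts, at a median of 0.92. The interaction was called for 0 of these 16 genes and for 0% of all tested genes. Calls in 1 genotype alone are thus not shown to differ between the genotypes, for this list or those below. Other FOXO-induced genes were called higher for 9 of 22 and lower for 3 in knockouts, led by Gabarapl1 (2.08 ± 0.36, adjusted p = 0.000672), Klf9 and the muscle-wasting ubiquitin ligase gene Fbxo32 (1.50 ± 0.20, adjusted p = 0.000103). In wild type they were higher for 5 and lower for 1 (0 lower without E18.5 wild type 1), led by Rbl2 (1.05 ± 0.21, adjusted p = 0.00627) and Angptl4 (0.95 ± 0.16, adjusted p = 0.00224). FOXO factors and upstream genes were called higher for 6 of 21 in knockouts and 2 of 21 in wild type, among them Sgk1 (1.70 ± 0.33, adjusted p = 0.00133) and Foxo3 (0.87 ± 0.20, adjusted p = 0.00413) in knockouts and Rictor (0.52 ± 0.11, adjusted p = 0.00775) in wild type.

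Hypoxia targets were lower at P0, with 15 of 19 called lower in knockouts and 12 of 19 in wild type, against 2 called higher in knockouts (1 without P0 knockout 1, 5 or 6 or E18.5 knockout 3, 4 or 5) and 1 in wild type (0 without E18.5 wild type 1, 2 or 3). Egln3, the HIF prolyl hydroxylase, fell by 2.33 on the log2 scale in knockouts (SE 0.31, adjusted p = 9.79e-05) and by 2.04 in wild type (SE 0.35, adjusted p = 0.0026), while Bnip3, itself a HIF target, was not called in either. Carbohydrate response targets, in a list that also holds Mlxipl, Mlx and Mlxip, were called lower for 6 of 11 in knockouts and 4 of 11 in wild type (2 without P0 wild type 3 or E18.5 wild type 1 or 2), with the fatty acid synthase Fasn at -0.90 ± 0.13 in knockouts and -1.13 ± 0.14 in wild type. Arrdc4, the arrestin most like Txnip, was the single one called higher, by 0.91 ± 0.19 in knockouts (adjusted p = 0.00214) and 1.11 ± 0.21 in wild type (adjusted p = 0.00446). Of 14 fasting and PPAR targets, 2 were called higher and 2 lower in knockouts (4 higher without P0 wild type 3), and 6 higher in wild type, where Cpt1a, the gate of fatty acid entry into mitochondria, rose by 1.95 ± 0.22 (adjusted p = 0.000215). Of 11 p53 targets, 1 was called higher and 2 lower in knockouts and 0 in wild type, not far from those shares of all tested genes. Without the 5 arrays high in intestinal or muscle markers the counts in knockouts were 0 of 16 for glucocorticoid receptor targets, 2 of 22 for other FOXO-induced genes, 2 of 21 for FOXO factors and upstream genes and 2 of 19 lower for hypoxia targets, where in wild type 12 of 19 hypoxia targets were still called lower. In knockouts the carbohydrate response list then had 3 called lower and 0 higher, so the call for Arrdc4 was lost. Fasting and PPAR targets then had 1 called higher and 0 lower, and p53 targets 0 in either direction. Between the genotypes limma called none of the 106 genes of these 7 lists at either age; at an unadjusted p under 0.05 there were 28 at P0 and 2 at E18.5, beside 8.76% of all tested genes at P0 and 5.45% at E18.5. At P0, 8 of 16 glucocorticoid receptor targets had an unadjusted p under 0.05, with 15 of 16 differences above 0 at a median of 0.53, against 0.0054 over all tested genes. Of the other FOXO-induced genes 8 of 22 did, with 18 of 22 above 0 at a median of 0.36. The smallest p of this list was that of Angptl4, which was lower in knockouts (-0.79 ± 0.14, unadjusted p = 3.57e-05, adjusted p = 0.0952 in limma). The fasting and PPAR targets, a list that also holds Angptl4, mostly stood lower in knockouts. Of these, 6 of 14 had an unadjusted p under 0.05 and 2 of 14 differences were above 0, at a median of -0.28. The genes within a list are not independent observations, and these limma p-values too rest on a spread shared by both ages. Within groups 12 of 16 glucocorticoid receptor targets and 6 of 22 other FOXO-induced genes moved with Sesn1, which was low in P0 wild types 1, 2 and 4.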

How the data were processed

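Pancreas RNA was hybridised to 20 Affymetrix mouse transcript arrays after whole-transcript amplification, per the labels' protocols. The values as deposited are RMA signals on the log2 scale, for which the submitters' processing notes name the tool Affymetrix Expression Console 1.4.1.46; the genome build of the array is not given in the sources used here. Of 65956 probe sets, 30604 carried 1 gene symbol, 2146 several and 33206 none, and symbols were updated through GRCm38.p6 by Entrez ID (22818 matched). Per gene the single-symbol probe set with the highest mean was used; Sesn3 alone of the 10 had 2.

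Genes that read above the median of 4 or more of the 20 arrays were tested with limma 3.58.1 in R 4.3.3 (lmFit and eBayes, 1 mean per group, two-sided), with Benjamini-Hochberg adjustment across every tested gene; an adjusted p under 0.05 is a call. Covariation fits added one member's log2 value as a covariate. Correlations used within-group deviations, with p-values from 100000 shuffles within groups over all 20 arrays. On fewer arrays every arrangement within groups was used, 2880 at E18.5 and 720 in the P0 knockouts. The fits were tested on simulated data. Same-numbered arrays of different groups had correlations of -0.305 to 0.245 in their deviations, so replicate numbers were not taken as pairs. Promoter windows came from RefSeq's GRCm38.p6 table. Tables and figures were made with Python 3.11.15, numpy 2.4.6, pandas 2.3.3 and matplotlib 3.10.9.

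The members and lists were chosen with earlier results of these data known. Named beside the members were Elapor1, up to 4 called genes with the largest difference per list and comparison (or up to 2 with the smallest p), and the 8 genes most and the 8 least like the members' mean, leaving out predicted genes, small RNAs and genes that duplicate another's values. Tsc22d3, Foxo3 and Gabarapl1 slopes were given after their values were seen. Alternatives were other filters, normalisations, variance settings, array weights, covariates, a replicate block, the mean over probe sets and leaving out each array. Added after seeing the data were leaving out the arrays high in intestinal or muscle markers, and, for covariation, marker covariates, a replicate block and each age alone.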

Additional observations from a re-analysis of the deposited data

Results flagged for a closer look

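Within the 4 groups, 40 sets of values of the 10 genes were searched for an array far from the others of its group, and 3 were found, where chance gives about 1 in 20. Sesn1 read 11.1 on E18.5 wild type 4, against 9.76 on the next array of that group, and the same array had a mean of 8.65 for the intestinal epithelium markers. Bnip3 read 9.78 on E18.5 knockout 1, against 8.39 on the next, and that array had means of 8.23 for the skeletal muscle and 7.80 for the intestinal markers. Bcl6 read 5.1 on P0 knockout 2, against 4.53 on the next, still close to the array's background. The part of the marker levels in these values was not tested.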

How the results depend on the processing

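Counts of called members were recomputed under every alternative. In P0 minus E18.5 in knockouts the count of 7 became 3 with the running sample number, which nearly coincides with age, as a covariate and 1 without the arrays high in intestinal or muscle markers. In wild type the count of 2 became 1 with the replicate block, with the running number and with the marker means as covariates, and 1 to 4 without single arrays. The 4 counts between genotypes stayed 0 under all alternatives. Covariation counts, beside 3 with Pdk4, 2 with Sesn1, 3 with Trp53inp1, 1 with Klf15 and 0 with Bnip3, became 0, 1, 1, 0 and 0 with the replicate block, 0, 2, 1, 0 and 1 on P0 arrays alone, 0, 1, 1, 0 and 0 on E18.5 arrays alone, and 1, 2, 1, 0 and 0 without the marker-rich arrays; these fits have fewer arrays or more terms. With marker covariates 1 was called with Sesn1 and 0 with Klf15, and with cyclic loess 2 with Klf15. Without single arrays the counts ran from 1 to 3 with Sesn1 and 0 to 2 with Klf15. Pairs with r over 0.5, 15 on all arrays, were 8 on E18.5 arrays alone and 8 to 19 without single arrays. Replicate numbers did not pair the arrays, so the block is no paired analysis.

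Signs turned for uncalled differences near 0. Pdk4 at P0 between genotypes became 0.035 without the marker-rich arrays and ran from -0.63 to 0.69 without single arrays. At E18.5 between genotypes, Trp53inp1 became -0.013 after quantile normalisation, -0.023 with cyclic loess, -0.035 with the replicate block and -0.053 with the running number (-0.17 to 0.20 without single arrays). Bnip3 became -0.070 with array weights, -0.13 with marker covariates and -0.49 without the marker-rich arrays (-0.25 to 0.27). Pdk4 became 0.11 and 0.39 under the same last 2 settings (-0.19 to 0.13), Klf15 0.021 and 0.0065, and Sesn1 0.86 without the marker-rich arrays (-0.67 to 0.073). Sesn3 by age in wild type ran from -0.13 to 0.19. The cause was not tested. Bcl6, without a signal filter, had differences of -0.04 to 0.14 and no call.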
